A study of Rattus norvegicus with 8 samples.

Results

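The genes described here are 10 members of the circadian clock, namely Bmal1, Clock, Per1, Per2, Per3, Cry1, Cry2, Nr1d1, Nr1d2 and Dbp. Their probes were the non-control probes of the Arraystar rat lncRNA array whose RefSeq accession belongs to one of these genes, with Bmal1 also sought under its older symbol Arntl. In this way 9 of the 10 members had a probe, out of 13903 genes that were matched on the array. Together they took up 10 of the 24684 probes that are not controls. Nr1d1 had 2 probes for different transcript accessions, the other 8 members had 1 each, and every one of these probes was printed in 1 spot. Nr1d2 had no matched probe, and no value is given for it.

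The arrays came from male F344 rats at week 95 of a lung cancer model induced by NNK, a carcinogenic nitrosamine of tobacco smoke. There were 3 lung tumors, described in the methods as moderately differentiated adenocarcinoma, and 3 normal lung tissues, which the methods call matched. Besides these there was a clot from whole blood of 1 control rat and of 1 NNK-treated rat. Both lung groups carried the NNK treatment, and lung of an untreated rat is not analysed here. In 1 field the label of the NNK blood sample repeats a tumor description, but it was taken as blood, as its title, source and tissue say. The hour at which tissue or blood was taken, which bears on every gene of the clock, is not given in the sources used here.

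The mammalian clock is a feedback loop of transcription that runs in most cells, the lung's included. BMAL1 pairs with CLOCK, binds E-boxes in DNA and activates the genes of the PER and CRY proteins, which then return to the nucleus and repress that pair. In a second loop the nuclear receptor NR1D1, also called REV-ERB alpha, represses Bmal1, while DBP, whose gene is an output of the loop, activates genes through D-boxes. The transcripts of these genes therefore rise and fall over the day at different phases, with Bmal1 roughly opposite to Nr1d1, Dbp and the Per genes.

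Signals are given as log2 of the background-subtracted processed signal, quantile-normalized within the 6 lung arrays and, apart from these, within the 2 blood arrays. Lung groups were compared with limma over all 12471 probes tested. A probe was called changed at a fold change of at least 2 with a Benjamini-Hochberg adjusted p of at most 0.05. Levels on this scale are compared between samples for 1 probe at a time and never between probes. The normal lung arrays lay on slide 1 with tumor array 1, tumor arrays 2 and 3 on slide 2, and the blood arrays on slide 3. The 3 normal lung arrays lay closer together than the noise between repeated spots would give, as did tumor arrays 2 and 3, with ratios of observed to expected squared difference of 0.464 to 0.788. Having differed by less than the sampling noise, they count as 1 sample wherever a mean ± SD is given (1 normal lung and 2 tumor samples). The adjusted p with arrays so counted is given for called clock genes, further clock factors, modifying enzymes and rhythmic outputs. For the called glucocorticoid targets the log2 fold change with arrays so counted is given. That fit has to assume the same spread for the lone normal sample as for the tumor samples. Nothing in the labels says whether the normal tissues came from separate rats, so the p values measure the spread between these arrays, which may be technical.

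In lung tumor, 3 of the 8 clock genes tested were called changed, against 29% of all probes called in either direction. Nr1d1 was higher, against 13.5% of all probes called higher, and Per1 and Cry1 were lower, against 15.5% called lower. Per2 missed the 2-fold threshold narrowly, and Dbp, Bmal1, Per3 and Cry2 were not called. At an adjusted p of at most 0.05 and any fold, 1 gene was higher and 4 were lower, and the tumor and normal arrays did not overlap for 6 of the 8. Over all probes tested these shares were 65.1% and 72.9%, so neither count sets the clock genes apart. The median log2 fold change was -0.19 over the 8 genes and 0.065 over all probes tested. With the near-identical arrays counted once, 0 of the 8 were called, while 14.2% of all probes were.

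**Figure D1:**
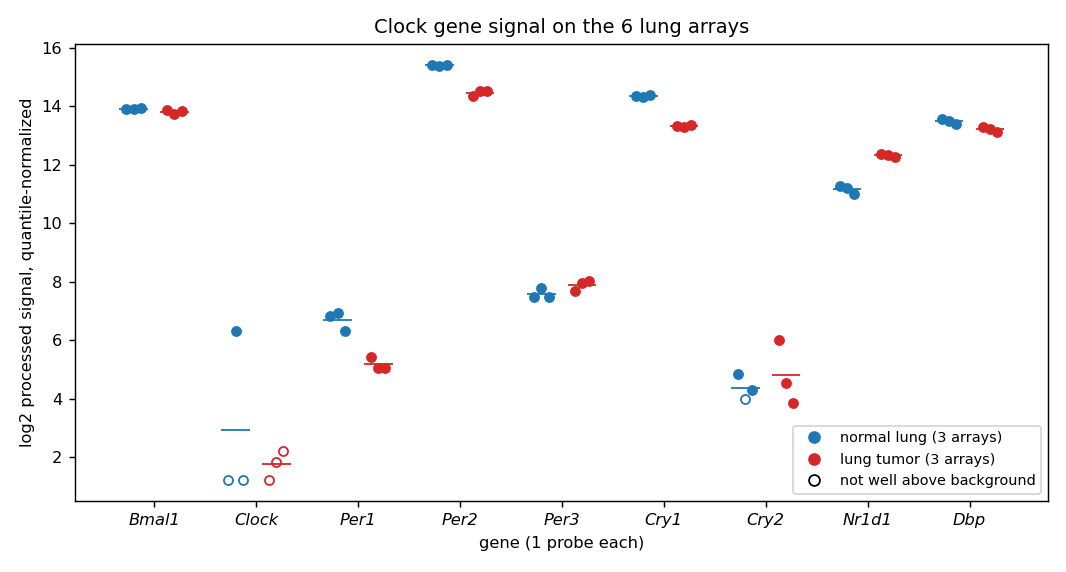
Log2 processed signal (y axis, quantile-normalized over the 6 lung arrays, spots with an outlier mark kept) of each clock gene with a probe (x axis) on the 3 normal lung arrays (blue) and the 3 lung tumor arrays (red), with open circles where the probe was not well above background and lines at the group means. Nr1d1 lay between 11.01 and 11.28 on the normal arrays and between 12.27 and 12.38 on the tumor arrays, whereas the arrays of both groups overlapped for Per3, Cry2 and Clock.

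Of the activators, Bmal1 was measured at almost the same level on all lung arrays. Its log2 signal was 13.91, 13.92 and 13.92 on the normal arrays and 13.86, 13.74 and 13.82 on the tumor arrays. The normal arrays spanned 0.014, against a median span of 0.14 over the mRNA probes with 1 spot, and the tumor arrays lay slightly lower without overlap. The log2 fold change was -0.11 (standard error 0.055, 95% interval -0.25 to 0.028, adjusted p = 0.128, limma). The Bmal1 spot carried an outlier mark on each tumor array, so this value comes from the fit with marked spots kept. Clock, which codes for the partner of BMAL1, could not be tested. Its probe was well above background on 1 of the 6 lung arrays, normal array 2, with a log2 signal of 6.31 there, and it read 1.24 and 1.23 on the other normal arrays and 1.23, 1.84 and 2.22 on the tumor arrays.

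The Per and Cry genes, which code for the repressors of the BMAL1 and CLOCK pair, differed among themselves. Per1 was dim. It read 6.84, 6.94 and 6.33 on the normal arrays and 5.42, 5.06 and 5.05 on the tumor arrays, so that every tumor array was below every normal array. Per1 fell by 1.53 in log2 units (standard error 0.20, adjusted p = 0.0014, limma), a 2.88-fold difference. Counted once, its level was 5.24 ± 0.25 (SD, n = 2) in tumor against 6.70 in 1 normal lung sample, and the adjusted p was 0.063. After the normexp background correction the log2 fold change was -0.682 and under 2-fold.

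Per2 was bright on every lung array and well separated between the groups. It read 15.41, 15.38 and 15.39 on the normal arrays and 14.34, 14.50 and 14.50 on the tumor arrays. The log2 fold change was -0.95 (standard error 0.065, 95% interval -1.11 to -0.78, adjusted p = 0.000116, limma), 1.93-fold lower and so just under the 2-fold threshold. The scaling decided its call. After a 75th percentile shift, after quantile normalization over all 8 arrays, in the authors' normalized values and with the slide as a block, its log2 fold change was between -1.11 and -1.05, and Per2 was called lower in all of these. With arrays counted once it stood at 14.42 ± 0.11 (SD, n = 2) in tumor, and the adjusted p was 0.080. Per3 was not called. It read 7.49, 7.78 and 7.47 on the normal arrays and 7.68, 7.96 and 8.02 on the tumor arrays, which overlapped, and its log2 fold change was 0.31 (standard error 0.14, 95% interval -0.035 to 0.65, adjusted p = 0.097).

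Cry1 read 14.35, 14.33 and 14.37 on the normal arrays and 13.33, 13.29 and 13.35 on the tumor arrays. Within each group the arrays agreed closely, and the groups were about 1 unit apart. Cry1 fell by 1.02 in log2 units (standard error 0.048, adjusted p = 2.91e-05, limma), which is 2.03-fold and just past the threshold. Its tumor level counted once was 13.32 ± 0.0053 (SD, n = 2) against 14.35 in normal lung, with an adjusted p of 0.067, and after normexp the log2 fold change was -0.917. Cry2 lay near background. It read 4.84, 4.00 and 4.30 on the normal arrays, of which array 2 was not well above background, and 6.01, 4.54 and 3.87 on the tumor arrays. Tumor array 1 was the highest and tumor array 3 the lowest of all 6. The log2 fold change of 0.43 had a standard error of 0.59 (adjusted p = 0.544). It turned to -0.17 without tumor array 1, and it was 1.63 (adjusted p = 0.030) in the fit with the slide as a block, in which that tumor array alone is set against normal lung.

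Nr1d1 was the only clock gene called higher in lung tumor as reported here, with Cry2 joining it when the slide was a block, and both of its probes were called. The probe with the higher mean read 11.28, 11.19 and 11.01 on the normal arrays and 12.38, 12.33 and 12.27 on the tumor arrays. The other probe read 11.24, 11.10 and 11.07 and then 12.30, 12.29 and 12.30. On both probes the lowest tumor array lay about 1 unit above the highest normal array. Nr1d1 rose by 1.17 (standard error 0.087, 95% interval 0.95 to 1.39, adjusted p = 0.000156, limma) on the first probe and by 1.16 (standard error 0.065, adjusted p = 5.28e-05) on the other, a 2.25-fold and a 2.23-fold rise. Counted once, the first probe stood at 12.34 ± 0.053 (SD, n = 2) in tumor against 11.16 in normal lung, and the adjusted p was 0.056 for both probes. In the other alternatives run, the rise on the first probe was between 1.06 and 1.23 and called in each. In the annotation Nr1d1 overlaps Thra, the gene of thyroid hormone receptor alpha, which is known to run on the opposite strand. The Thra probe well above background on all 6 lung arrays moved in the opposite direction, at -1.81 on the log2 scale (adjusted p = 8.28e-06, standard error 0.059, marked spots kept).

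Dbp, the output factor, read 13.56, 13.48 and 13.40 on the normal arrays and 13.28, 13.20 and 13.13 on the tumor arrays. Tumor was slightly lower on every array. Its log2 fold change was -0.27 (standard error 0.071, 95% interval -0.45 to -0.0955, adjusted p = 0.019, limma), well short of 2-fold, and the adjusted p was 0.426 with arrays counted once.

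**Figure D2:**
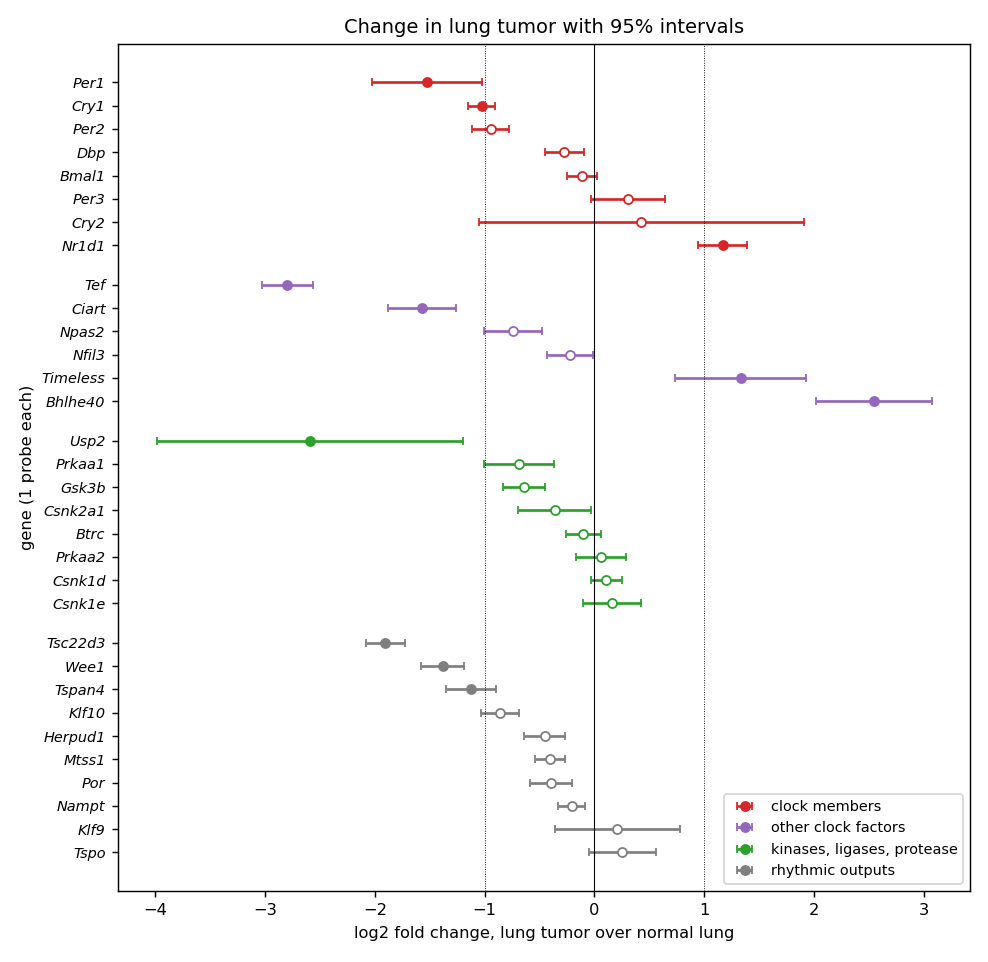
Log2 fold change of lung tumor over normal lung (x axis) with its 95% interval from limma for each gene with a value (y axis, 1 probe each), filled where called changed and open where not, with dotted lines at 2-fold. Per1 at -1.53, Cry1 at -1.02 and Nr1d1 at 1.17 are the called clock members, while Tef at -2.80 and Bhlhe40 at 2.55 lie farther out among the other clock factors.

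Sequences before the transcript starts of 9 members were at hand from RefSeq (assembly GRCr8), in 11 windows of 250 bases, and Cry1 is not among them. The E-box CACGTG was searched on both strands, as were the D-box TTATGTAA or TTACGTAA and AGGTCA, the core of the element that REV-ERB and ROR receptors bind. The E-box stood in 1 of the 11 member windows, an inner start of Nr1d1, and in 5.59% of all 33469 windows. The windows of Per1 and Per3, and the later window of Clock, also lie inside the annotated span of their genes. For Per1 and Per3 no stretch before the gene was searched. The D-box stood in the window of Per2 and in 0.932% of all windows, and AGGTCA in those of Bmal1 and Nr1d2 and in 14.1% of all. The Bmal1 match, 15 bases before the start used, lies inside the annotated span of its gene. Nr1d1 and Per2 are shown because they carry these letters and moved apart in lung tumor, with the motif in capitals. The Nr1d1 window (chr10:84229455-84229704, minus strand) lies inside the annotated span of the gene, and its E-box begins 191 bases before the inner start. The Per2 stretch (chr9:99497070-99497243, minus strand) is the 174 bases of its window that lie before the gene, and its D-box begins 192 bases before the start used.
Nr1d1: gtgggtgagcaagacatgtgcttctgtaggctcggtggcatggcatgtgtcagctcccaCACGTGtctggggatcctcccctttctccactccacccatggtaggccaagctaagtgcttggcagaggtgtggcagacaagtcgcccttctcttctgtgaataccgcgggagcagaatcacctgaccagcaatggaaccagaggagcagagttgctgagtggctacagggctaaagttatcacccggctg
Per2: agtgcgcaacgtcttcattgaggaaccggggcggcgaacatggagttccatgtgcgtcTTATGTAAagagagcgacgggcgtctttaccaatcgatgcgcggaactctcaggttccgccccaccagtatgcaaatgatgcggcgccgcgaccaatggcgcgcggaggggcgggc
A match of these letters is a description of the sequence, and binding was not measured.

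Further factors of the clock were followed in a list of 12 genes, of which 6 had a probe and a value. Of these, 2 were called higher and 2 lower in lung tumor. With marked spots kept, from which 2 of the calls come, 27.9% of all probes were called, 13.5% higher and 14.4% lower. Tef, a DBP relative that acts through the same D-boxes, fell by 2.80 (standard error 0.092, adjusted p = 1.04e-05, limma). Its mean was 12.41 on normal and 9.61 on tumor arrays. Ciart, a repressor of the BMAL1 and CLOCK pair, fell by 1.57 (standard error 0.12, adjusted p = 0.000182). Bhlhe40, which competes for E-boxes and represses, rose by 2.55 (standard error 0.21, adjusted p = 0.000196, marked spots kept) to a mean of 9.55 in tumor. Timeless, better known in mammals for its part at the replication fork, rose by 1.33 (standard error 0.24, adjusted p = 0.0044, marked spots kept). Npas2, which can stand in for CLOCK, had a log2 fold change of -0.74 (adjusted p = 0.0020), and Nfil3, which opposes DBP at D-boxes, one of -0.22 (adjusted p = 0.061, marked spots kept). With arrays counted once, Tef (adjusted p = 0.035) and Bhlhe40 (adjusted p = 0.037) were still called, and Ciart (adjusted p = 0.0501) and Timeless (adjusted p = 0.115) were not. Timeless was also not called after normexp (0.99).

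Of the 12 further factors 10 had a window, and the E-box stood in those of 4, Tef, Ciart, Bhlhe40 and Bhlhe41, against 5.59% of all windows. The Bhlhe41 match, 48 bases before the start used, lies inside the annotated span of its gene. Timeless had none, and Bhlhe41 had no value in lung. Tef, Ciart and Bhlhe40 were called in lung tumor and are shown because they differ in direction and hold the same letters. Ciart (chr2:186112247-186112496, minus strand) has 3, at 93, 35 and 21 bases before its start. Tef (chr7:115206577-115206826, plus strand) has 1 at 198 bases and Bhlhe40 (chr4:143174200-143174449, plus strand) 1 at 220 bases. The windows of Ciart and Tef lie inside the annotated span of their genes, as do those of Bmal2, Npas2 and Rora.
Ciart: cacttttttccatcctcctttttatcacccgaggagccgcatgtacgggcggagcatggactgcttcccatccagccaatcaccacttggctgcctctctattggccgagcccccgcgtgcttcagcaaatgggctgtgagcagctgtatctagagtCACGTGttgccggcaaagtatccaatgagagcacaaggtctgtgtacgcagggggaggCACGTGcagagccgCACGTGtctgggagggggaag
Tef: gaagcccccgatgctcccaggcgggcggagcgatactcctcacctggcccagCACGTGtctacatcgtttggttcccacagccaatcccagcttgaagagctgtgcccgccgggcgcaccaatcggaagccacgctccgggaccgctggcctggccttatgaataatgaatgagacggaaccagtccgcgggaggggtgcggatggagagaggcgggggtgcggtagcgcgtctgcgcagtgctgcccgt
Bhlhe40: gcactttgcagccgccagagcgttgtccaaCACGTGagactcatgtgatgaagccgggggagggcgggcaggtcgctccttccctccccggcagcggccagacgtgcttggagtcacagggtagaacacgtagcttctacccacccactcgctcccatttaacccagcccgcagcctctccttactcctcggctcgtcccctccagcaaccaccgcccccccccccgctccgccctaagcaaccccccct

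The enzymes that modify clock proteins (kinases, ubiquitin ligases and a protease) were followed in a list of 12, of which 8 were measured. Usp2 alone was called, against 29% of all probes. At an adjusted p of at most 0.05 and any fold 3 of the 8 were lower and 0 higher, against 65.1% of all probes in either direction, and the median log2 fold change was -0.23. Usp2, a ubiquitin protease whose own transcript is rhythmic, fell by 2.59 (standard error 0.55, adjusted p = 0.0093, limma), with an adjusted p of 0.0488 when arrays were counted once. Its fall was 0.90 after normexp and 2.17 with the slide as a block (adjusted p = 0.084), and it was not called in these. The casein kinase genes Csnk1d at 0.11 and Csnk1e at 0.16, which code for kinases of the PER proteins, were not called.

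Among 12 genes that are rhythmic in many tissues, 10 had a value and 3 were called, all lower, against 29% of all probes called (27.9% with marked spots kept) and 15.5% called lower (14.4% with marked spots kept). These were Tsc22d3, a glucocorticoid-induced regulator, at -1.90 (standard error 0.071, adjusted p = 1.22e-05), Wee1, a kinase that holds back mitosis, at -1.38 (standard error 0.078, adjusted p = 5.58e-05) and Tspan4, a tetraspanin, at -1.13 (standard error 0.091, adjusted p = 0.000183), the first and the last with marked spots kept. With arrays counted once, Tsc22d3 alone was still called (adjusted p = 0.032), and the adjusted p was 0.053 for Wee1 and 0.076 for Tspan4. Tspan4 was also under 2-fold with the slide as a block (-0.95) and after normexp (-0.93). Glucocorticoids themselves follow a daily rhythm, and of 7 of their known target genes 4 were lower and 0 higher in lung tumor, against the same 15.5% called lower over all probes. Zbtb16, a zinc finger repressor, fell by 3.08 (standard error 0.15, adjusted p = 3.49e-05), Dusp1, a phosphatase of MAP kinases, by 1.73 and Sgk1, a kinase of salt transport, by 1.02, besides Tsc22d3. The median log2 fold change of this list was -1.02. With arrays counted once, the log2 fold change was -3.01 for Zbtb16, -1.87 for Tsc22d3, -1.73 for Dusp1 and -0.99 for Sgk1, the last under 2-fold. Sgk1 was below 2-fold without tumor array 3 (-0.98), with the slide as a block (-0.93) and after normexp (-0.87), and the log2 fold change of Zbtb16 was -1.87 after normexp.

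Markers of cell types moved with the same comparison. Over all probes tested 13.5% were called higher and 15.5% lower (13.5% and 14.4% with marked spots kept). The summed signals given below were taken after quantile normalization over the lung and blood arrays together. The log2 fold changes and calls come from normalization within lung, so the sums need not show the same fold. All 3 endothelial markers tested were lower in tumor. Their summed signal was 157855 to 168122 on the normal arrays against 19307 to 19428 on the tumor arrays. Of the type 1 alveolar markers 3 of 5 were lower (143487 to 149795 in tumor against 589264 to 621831), as were 4 of 5 red blood cell markers and 2 of 3 neutrophil markers. Of the platelet markers 3 of 4 were lower, but Pf4 stood at 0.98 and the summed platelet signal was higher in tumor (3937 to 4594 against 2640 to 2802). Sftpc was the 1 of 6 type 2 alveolar markers called, higher at 1.14. Napsa at 0.99, Lamp3 at 0.83 and Sftpd at 0.36 were higher without a call, while Sftpa1 stood at -0.26 and Sftpb at -0.30. Cdk1, a marker of dividing cells, was higher at 2.52, and Adipoq, 1 of 2 adipocyte markers tested, at 5.27. Of the heart muscle markers 3 of 4 were higher, with Tnnt2 at 4.94, and Myh6 was lower at -1.95. The liver markers were lower for 2 of 2 and the T cell markers for 1 of 5. The 1 B cell marker tested and 1 of 3 airway markers were higher, while 0 of 3 macrophage and 0 of 3 smooth muscle markers were called. The defining markers of lung were present in both groups, and summed type 2 alveolar signal was 934616 to 982212 in normal lung and 1099305 to 1120581 in tumor. The part of these cell types in the changes of the clock genes was not tested, and in bulk tissue fewer cells of a type cannot be told apart from less RNA per cell.

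**Figure D3:**
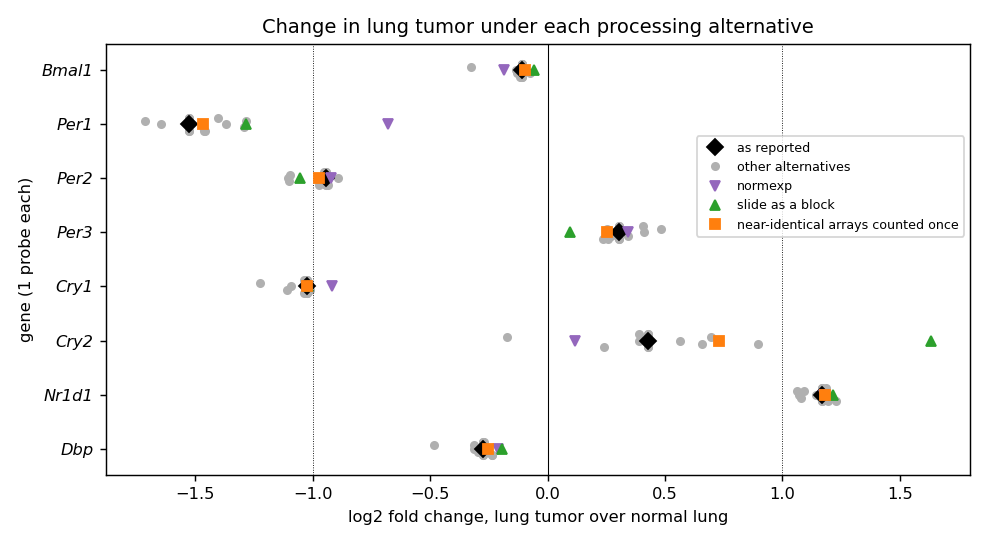
Log2 fold change of lung tumor over normal lung (x axis) of each clock gene tested (y axis, 1 probe each) as reported and under each processing alternative, with dotted lines at 2-fold. Nr1d1 stayed between 1.06 and 1.23, Per2 and Cry1 crossed -1 with the processing, and Cry2 ranged from -0.17 to 1.63.

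Within tumor, array 1 stood apart from arrays 2 and 3, which lay on another slide, so slide and sample cannot be told apart there. Over the mRNA probes with 1 spot the median size of this difference was 0.21 on the log2 scale. Tumor array 1 differed from the mean of the other tumor arrays most for Cry2, by 1.81, which lay near background. The difference was 0.36 for Per1, -0.32 for Per3 and -0.16 for Per2. With the slide as a block, which sets tumor array 1 against the normal arrays of its own slide, the log2 fold change was 1.22 for Nr1d1, -1.29 for Per1, -1.05 for Per2, which was then called, 0.094 for Per3, -1.02 for Cry1, -0.19 for Dbp and -0.059 for Bmal1. Cry2 stood at 1.63 in that fit. Without each lung array in turn, 1 gene stayed called higher and 2 lower.

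On the blood arrays 8 clock genes could be compared, with 1 array per group and so without a test or replicate check. By the values as measured, 2 of them were past 2-fold, both higher in NNK blood, against 23.1% of all probes at least 2-fold higher and 42.2% past 2-fold in either direction. Of these, Dbp alone was above background on both arrays. Dbp read 9.91 in control blood and 11.21 in NNK blood, a difference of 1.30 or 2.47-fold. This difference depended on the scaling and was 1.00 after quantile normalization over all 8 arrays, 0.93 in the authors' values and 0.66 after the 75th percentile shift. Clock was not well above background in control blood and read 4.76 in NNK blood. On this scale that makes it at least 1.39-fold higher and not shown to pass 2-fold. The bound is taken from the lowest signal of any probe well above background on the control array. After normexp the log2 difference of Clock was 0.39, under the bound of 0.47 in the same units. On the near-identical normal lung arrays this probe read 1.24, 6.31 and 1.23.

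The other clock genes differed little between the blood arrays. Bmal1 read 6.42 in control and 6.38 in NNK blood, Per2 8.25 and 8.11, and Per3 7.81 and 8.09. Cry1 read 14.11 and 14.20 and Cry2 6.32 and 6.09. Of the Nr1d1 probes, one read 10.75 and 11.15, and the other 11.28 and 11.18, where the NNK spot carried an outlier mark and was kept, so the probes differed in direction. After the 75th percentile shift the difference of NNK from control blood was -0.96 for Cry1 and -0.91 and -0.32 for the Nr1d1 probes, which then had the same direction. Per1 was not well above background on either blood array and is given no value.

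**Figure D4:**
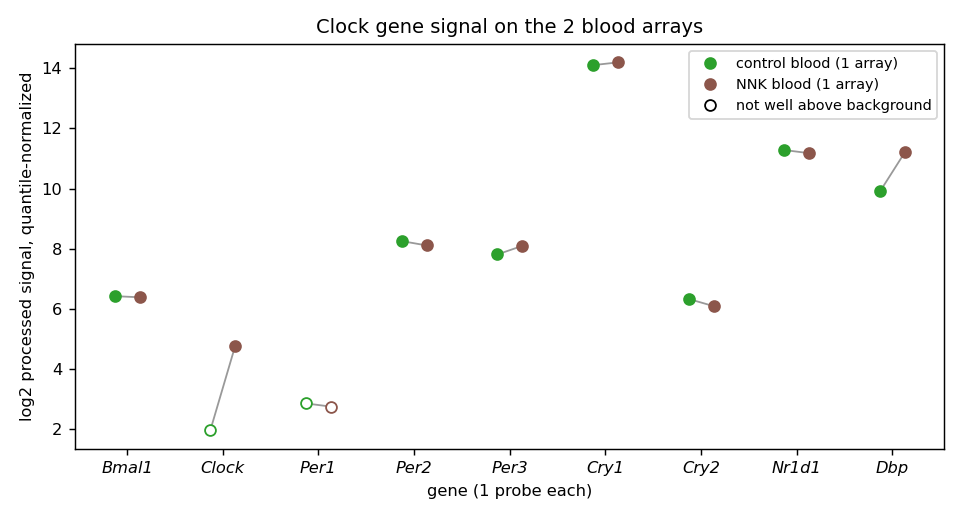
Log2 processed signal (y axis, quantile-normalized within the 2 blood arrays) of each clock gene with a probe (x axis) in control blood (green) and NNK blood (brown), 1 array each, with open circles where the probe was not well above background. Dbp read 9.91 and 11.21, Clock was above background in NNK blood alone, and the other probes plotted that were above background differed by at most 0.28 in size.

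Of the other clock factors, 0 of 4 compared were past 2-fold in blood, and Bhlhe40 came closest at -0.96. Among the modifying enzymes 2 of 7 were at least 2-fold lower, against 19.1% of all probes, namely the kinase genes Gsk3b at -1.45 and Csnk2a1 at -1.34. Of the rhythmic outputs, 6 of 8 were at least 2-fold higher in NNK blood, against 23.1% of all probes, and 5 to 7 were past 2-fold under the alternatives run. They were Nampt, an enzyme of NAD salvage, at 2.45, Herpud1, of the endoplasmic reticulum stress response, at 2.19, Wee1 at 2.04, Tspo, a mitochondrial membrane protein, at 1.79, Por, the electron donor of cytochrome P450 enzymes, at 1.36 and Tsc22d3 at 1.12. The size depended on the scaling for Wee1 (0.94 to 3.65), Tspo (0.81 to 1.79) and Tsc22d3 (0.48 to 1.12), and for Csnk2a1 it ranged from -2.43 to -0.82. Blood cell markers moved with them. T cell markers were at least 2-fold higher for 4 of 5 and neutrophil markers for 2 of 3, while 3 of 4 platelet markers were lower. After quantile normalization over all 8 arrays, the summed neutrophil signal was 55384 in control and 142415 in NNK blood. The part of these cell types in the differences in blood was not tested.

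Across tissues, 2 members were far higher in lung than in blood under every scaling tried. After quantile normalization over all 8 arrays, Bmal1 had a log2 signal of 12.93 to 12.95 in normal lung, 12.75 to 12.88 in lung tumor, 8.24 in control blood and 8.17 in NNK blood. Normal lung and tumor were neighbours in this order, and normal lung was 26.0-fold above control blood and 27.3-fold above NNK blood. Per2 had 14.62 to 14.66 in normal lung, 13.41 to 13.59 in tumor, 11.18 in control blood and 10.99 in NNK blood, so that normal lung was 11.0-fold and 12.5-fold above blood. Differences of this size were not rare. Of 9656 probes above background in both tissues, 5.16% exceeded blood by at least as much as Bmal1 did and 11.4% by as much as Per2. Per1, dim in lung and at background in blood, was at least 3.11-fold higher in normal lung than in control blood and at least 3.24-fold higher than in NNK blood on this scale. After the 75th percentile shift, normal lung minus control and NNK blood was 0.73 and 0.53 in log2 units for Per1, so these bounds depend on the scaling.

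The other members above background in both tissues were lower in normal lung than in blood on this scale, though not on all. Clock, above background on 1 of the 6 lung arrays and in NNK blood, is given no order. For Cry2, normal lung minus control and NNK blood was -3.80 and -3.37, and it stayed negative without any normalization (-1.44 and -2.43). For Cry1 the differences were -2.36 and -2.41 with quantile normalization and 0.35 and 0.20 without it, so the direction turned. Per3 was at -3.46 and -3.83 against 0.17 and -1.10, and the brighter Nr1d1 probe at -3.64 and -3.56 against 0.037 and -0.16. Dbp was at -0.37 and -1.37, and at 3.98 and 2.21 without normalization. Before normalization, the 75th percentile of the processed signal lay between 1191 and 1329 in lung, against 95.4 in control blood and 205.8 in NNK blood.

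**Figure D5:**
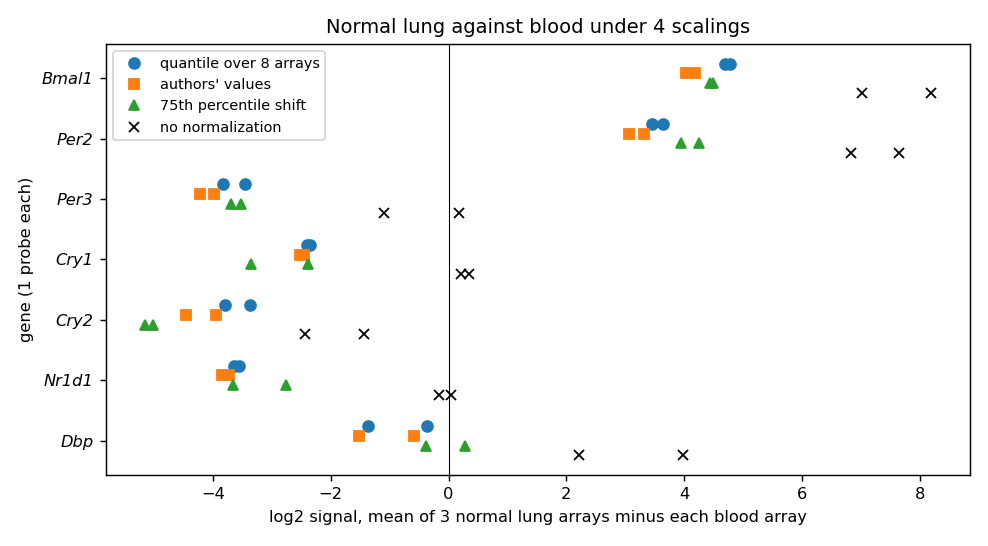
Difference in log2 signal between the mean of the 3 normal lung arrays and each blood array (x axis, 2 points per scaling) for the clock genes above background in both tissues (y axis, 1 probe each), under 4 scalings. Bmal1 and Per2 lie to the right of 0 and Cry2 to the left under all of them, while Per3, Cry1, Nr1d1 and Dbp cross 0.

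Over the 8 arrays together, with each probe centred on its own mean, the genes nearest to Bmal1 among 14274 matched mRNA probes were Enpp5, Akap14 and Atp1b2, at Euclidean distances of 0.15, 0.22 and 0.25. All 3 were well above background on the 6 lung arrays and on neither blood array, so this likeness rests on the difference between tissues. Nearest to Dbp were Or2y16, which was not above background on any array, Rara and Rgs14, at 0.24, 0.24 and 0.26, the latter 2 above background on all 8.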

How the data were processed

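The authors deposited the intensity of every spot of the 8 arrays from Agilent Feature Extraction 10.5.1.1, background-subtracted and not normalized between arrays. They also deposited log2 values, quantile-normalized in GeneSpring over all 8 arrays, which served as an alternative. Precision is limited by the number of arrays. With R 4.3.3 and limma 3.58.1, log2 processed signals of the 42136 non-control spots were quantile-normalized within the 6 lung and within the 2 blood arrays. Outlier-marked spots were left out and spots of a probe averaged. In lung, 15803 probes exceeded background well on at least 3 of 6 arrays, and 12471 of them had at least 2 values in each group and were tested with lmFit and eBayes, two-sided. In blood, 14452 probes above background on at least 1 array were compared by fold alone. A probe lost to outlier marks took its value from the fit with these spots kept. Of the mRNA probes, 14274 (93.2%) were named through RefSeq accessions. Gene names come from GRCr8, and the array's own build was not used. The lists were described by counts alone, and a gene with several probes is represented by the one with the highest mean lung signal. All 10 members, the called genes of each list (at most 6 by size) and the 3 nearest genes to Bmal1 and Dbp were named. Members and lists were chosen with earlier results of these data known. In simulated data, limma recovered 80% of 200 changed probes among 12471, with 1 false call. The planted changes were all well past 2-fold, and noise was drawn independently for each array. The recovery therefore does not bear on calls near the threshold or on near-identical arrays. Alternatives comprised scaling, background correction, a floor of 5, filters, outlier marks, the methods' t-tests, blocks, arrays counted once and each lung array left out.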

Additional observations from a re-analysis of the deposited data

How the results depend on the processing

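In lung, 1 clock gene was called higher and 2 lower. Counting near-identical arrays once left 0 called in either direction, after normexp 0 were called lower, and with the slide as a block 2 were called higher. Leaving out each lung array gave 1 to 1 higher and 2 to 2 lower. The labels number tumors and normal tissues alike. The deviations of same-numbered arrays had correlations of 0.146, -0.036 and 0.16, and those of differently numbered arrays ran from -0.189 to 0.138. These values do not show whether the numbers mark pairs. With the replicate number as a block 1 was called higher and 2 lower. The methods' t-test, paired or not, gave 1 higher and 2 lower at their threshold and after adjustment. In blood, 2 genes were past 2-fold, of which Clock was below background in control blood, and 1 was after the 75th percentile shift, normexp, the stricter filter and in the authors' values. Of the other lists, counting arrays once left 2 of the other factors and 1 rhythmic output called in lung (4 and 3 as reported). The modifying enzymes had 0 called after normexp, with the paired t-test and with the slide as a block (1 as reported). In blood the other factors had 1 past 2-fold after quantile normalization over 8 arrays, without a filter and in the authors' values (0 as reported), and the modifying enzymes 1 after normexp (2 as reported). The glucocorticoid targets there had 0 after the 75th percentile shift, quantile normalization over 8 arrays and in the authors' values, and 2 without a filter (1 as reported). These list alternatives were chosen after seeing the data, and leaving out each lung array gave 4 to 4 other factors, 1 to 1 modifying enzymes, 3 to 3 rhythmic outputs and 3 to 4 glucocorticoid targets. Over all probes, 1683 were called higher in lung (967 after normexp, 778 counted once, 1090 with the paired t-test) and 1929 lower (1256 and 976 for the first pair of settings). In blood 3339 were higher (1488 after normexp, 2097 with the stricter filter) and 2757 lower (839 and 1733). No called value of a clock gene reversed its direction. The cause of these shifts was not tested. Low signal limits Clock, Cry2 and Per1.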
